A study of Mus musculus with 2 samples.

Results

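The glutathione S-transferases (GSTs) described here are 10 genes of the alpha, mu and theta classes: Gsta2, Gsta3, Gsta4, Gstm1, Gstm2, Gstm3, Gstm4, Gstm6, Gstt1 and Gstt2. They were found through the array's annotation as all probe sets, groups of short probes for one transcript, that carry exactly 1 of these symbols. This gave 15 probe sets of 45101, and each gene is represented by its brightest probe set, judged by the mean of the 2 arrays. All 10 genes reached a mean log2 value of at least 6, the level from which a gene is called measured here, as did 9299 of 18193 genes on the array. Livers were compared at postnatal day 30 between Yap+/+ mice, the wild type, and Yap+/- mice, which carry 1 disrupted copy of the gene for YAP. YAP, encoded by Yap1, is a transcriptional co-activator that the Hippo pathway restrains. Both groups were untreated, and the Yap+/- line had been bred to C57BL/6 for at least 6 generations. Pools of 5 livers per genotype were each run on 1 Affymetrix expression array, so every value is a single measurement, the spread between mice was not measured, and no difference between genotypes can be tested.

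Cytosolic GSTs are dimeric enzymes that join the thiol of glutathione to electrophilic compounds, such as lipid peroxidation products and activated drugs. The conjugates leave the hepatocyte through ABCC transporters and are trimmed to mercapturic acids. Hepatocytes make large amounts of alpha and mu class enzymes, and many of these genes respond to the transcription factor NRF2 through antioxidant response elements and to the xenobiotic receptors CAR and PXR. In the mouse the mu genes lie together in a cluster, as do the theta genes.

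The bases just upstream of the member with the largest difference, Gsta2, and of Gsta3 are shown first, both RefSeq sequences of build GRCm38.p6. Only the 250 bases before a transcript start were searched, and sites of these regulators further away were not looked for. Positions are counted from the annotated transcript start, and only bases outside the gene's annotated span are printed. Capitals mark a match on either strand to TGANNNNGC, a loose form of the core of the antioxidant response element. The Gsta2 run covers chr9:78347193-78347395 on the minus strand, positions -250 to -48, and the Gsta3 run chr1:21240335-21240564 on the plus strand, positions -250 to -21.
Gsta2: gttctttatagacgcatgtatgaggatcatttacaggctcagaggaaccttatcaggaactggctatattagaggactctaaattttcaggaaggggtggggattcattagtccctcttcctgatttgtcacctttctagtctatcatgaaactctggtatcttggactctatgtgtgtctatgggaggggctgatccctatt
Gsta3: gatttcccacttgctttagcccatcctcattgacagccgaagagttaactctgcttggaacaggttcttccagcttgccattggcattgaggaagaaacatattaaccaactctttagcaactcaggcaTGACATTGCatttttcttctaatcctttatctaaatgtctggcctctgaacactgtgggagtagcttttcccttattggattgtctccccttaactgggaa
Gsta2 has no match in its printed bases or in the rest of its 250-base window, whereas Gsta3 has the match shown, at positions -121 to -113, and another at -18 to -10. Shorter stretches of 29 bases show the other members with a match: Gstm3, which has a pair of them, Gstm4 and Gstt1, all read from the minus strand. The Gstm4 and Gstt1 stretches lie inside the annotated span of those genes.
Gstm3, chr3:107969379-107969407: gtccttcatgTGAACCTGCtcagaatcca
Gstm3, chr3:107969355-107969383: atccaaggccTGAAGGTGCataggatcct
Gstm4, chr3:108045044-108045072: gggttgaagtGCTTAATCAgcacttccgg
Gstt1, chr10:75797802-75797830: tgctggccgcTGAGAGAGCcctgcgctct
In all, 4 of the 8 members with a window in the promoter table had a match, against 38.7% of 27025 genes. The stricter form TGACNNNGC, whose matches are all matches of the first, was found in Gsta3 alone of the 8, against 11.5% of genes. GCGTG, the core bound by the aryl hydrocarbon receptor, was found in Gsta2 and Gstm1, against 30.9% of genes. GGAATG, the core bound by the TEAD partners of YAP, was found in Gstm2 alone of the 8, against 14.4% of genes. The log2 differences described below ran from -0.42 (Gstm4) to -0.01 (Gstt1) among the 4 genes with a TGANNNNGC match and from -0.44 (Gsta2) to -0.07 (Gstm2) among the 4 without. A match describes the letters of a window and is not a measured site. The lack of a match, as in Gsta2, says nothing about bases outside the window.

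All 10 genes read lower in the Yap+/- pool, by small amounts that differed between genes, although Gstt1 turned to 0.0012 when a trend over intensity was removed. The log2 difference, Yap+/- minus Yap+/+, ran from -0.44 to -0.01 with a median of -0.15, beside a median of 0 over all 9299 measured genes. A negative difference was found in 49.6% of measured genes. The other probe sets of the members gave the same sign, so that all 15 read lower in Yap+/-. Gsta2 and Gstm4 were at least 1.2-fold lower, which is 2 of 10 members, beside 5.45% of all measured genes. None of the 10 was at least 1.2-fold higher, beside 6.02% of measured genes. None was 1.5-fold lower, beside 0.645%, or 1.5-fold higher, beside 0.699%. Bright genes differed less on these arrays, with a robust SD (scaled median absolute deviation) of the difference of 0.15 over all measured genes and 0.11 over those with a mean of at least 10, the level that all members reach. Among the 1713 genes at that level, 3.91% were at least 1.2-fold lower, 3.56% at least 1.2-fold higher, and 51.7% had a negative difference. The 10 genes are related in sequence and in regulation, so they are not independent observations of the genotype. They and the lists below were chosen with earlier results of these data known, so the shares over all genes serve only as a description.

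**Figure D1:**
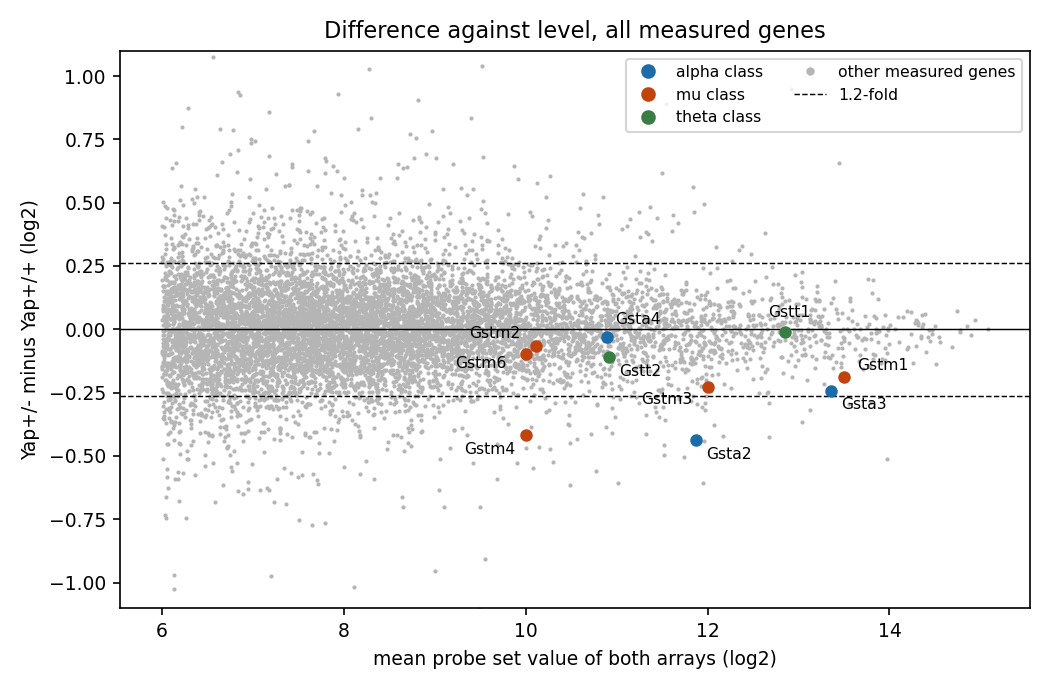
Log2 difference, Yap+/- minus Yap+/+, against the mean log2 value of both arrays for 9299 measured genes (grey) and the 10 GST genes (coloured by class); dashed lines mark 1.2-fold and 25 genes lie beyond the axis at 1.1. All 10 GST genes sit below 0, with Gsta2 and Gstm4 below the lower dashed line and Gstt1 at -0.01, which turns to 0.0012 when a trend over intensity is removed.

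In the alpha class, Gsta2 had the largest difference of the 10. Gsta2 encodes an enzyme that also reduces lipid hydroperoxides and is inducible through NRF2. It read 12.09 in Yap+/+ and 11.65 in Yap+/-, a log2 difference of -0.44 or 1.35-fold lower. A more negative difference was found in 129 of the 9299 measured genes and in 0.934% of the genes with a mean of at least 10. A further probe set matches 3 genes, Gsta2, Gsta1 and Gm3776, and stays outside the 15 for that reason. It read 11.45 and 10.94 and was 1.42-fold lower, so both probe sets that can bind Gsta2 transcripts read lower in the same pool. No probe set carries the symbol of Gsta1 or Gm3776 alone in the annotation used here, and how much of either signal is theirs was not tested. On its brighter probe set Gsta3, a constitutive alpha enzyme of mouse liver that detoxifies aflatoxin epoxide, read 13.47 in Yap+/+ and 13.23 in Yap+/-, 1.18-fold lower, with 4.55% of the genes at a mean of at least 10 more negative. Its second probe set read 11.53 and 11.31, and the log2 differences of the pair were -0.24 and -0.21. Gsta4, which conjugates the lipid peroxidation product 4-hydroxynonenal, read 10.91 and 10.88 with a difference of -0.03. The alpha genes therefore spanned nearly the whole range of the 10.

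In the mu class, Gstm4 stood furthest from 0. Its value was 10.22 in Yap+/+ and 9.80 in Yap+/- on a single probe set, a log2 difference of -0.42 or 1.34-fold lower. A more negative difference was found in 146 measured genes and in 1.17% of those with a mean of at least 10. Gstm1, a major mu enzyme of liver, had 4 probe sets. The brightest read 13.60 in Yap+/+ and 13.41 in Yap+/-, 1.14-fold lower, and the others 12.82 and 12.69, 12.16 and 11.95, and 9.25 and 9.10. The 4 differences lay between -0.21 and -0.13 on the log2 scale. Gstm3 read 12.12 in Yap+/+ and 11.89 in Yap+/-, 1.17-fold lower, with 5.37% of the genes at a mean of at least 10 more negative. Its second probe set, without a suffix for shared targets, read 8.67 and 8.37, a difference of -0.29 that is past the 1.2-fold line. Gstm6, at 10.05 and 9.95, had a difference of -0.10, and Gstm2, at 10.15 and 10.08, one of -0.07. Many measured genes were more negative than Gstm6 (25.4%) and Gstm2 (32.4%). The mu enzymes are close in sequence, and probe sets with the suffix _x_at or _s_at, as for the values of Gstm1 and Gstm3 named first, can bind transcripts of several of them, so these genes are uncertain to that extent.

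The 2 theta members, Gstt1 and Gstt2, had differences of -0.01 and -0.11, while Gstt3, a theta gene outside the 10, is described below at -0.37. Theta enzymes are an older branch of the family, and GSTT1 is known for conjugating halogenated solvents. Gstt1 read 12.86 in Yap+/+ and 12.85 in Yap+/-, and 47.4% of measured genes had a more negative value. Gstt2 read 10.97 and 10.86, 1.08-fold lower. By class the median difference was -0.24 for the 3 alpha genes, -0.19 for the 5 mu genes and -0.06 for the 2 theta genes, and the ranges of the classes overlap.

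**Figure D2:**
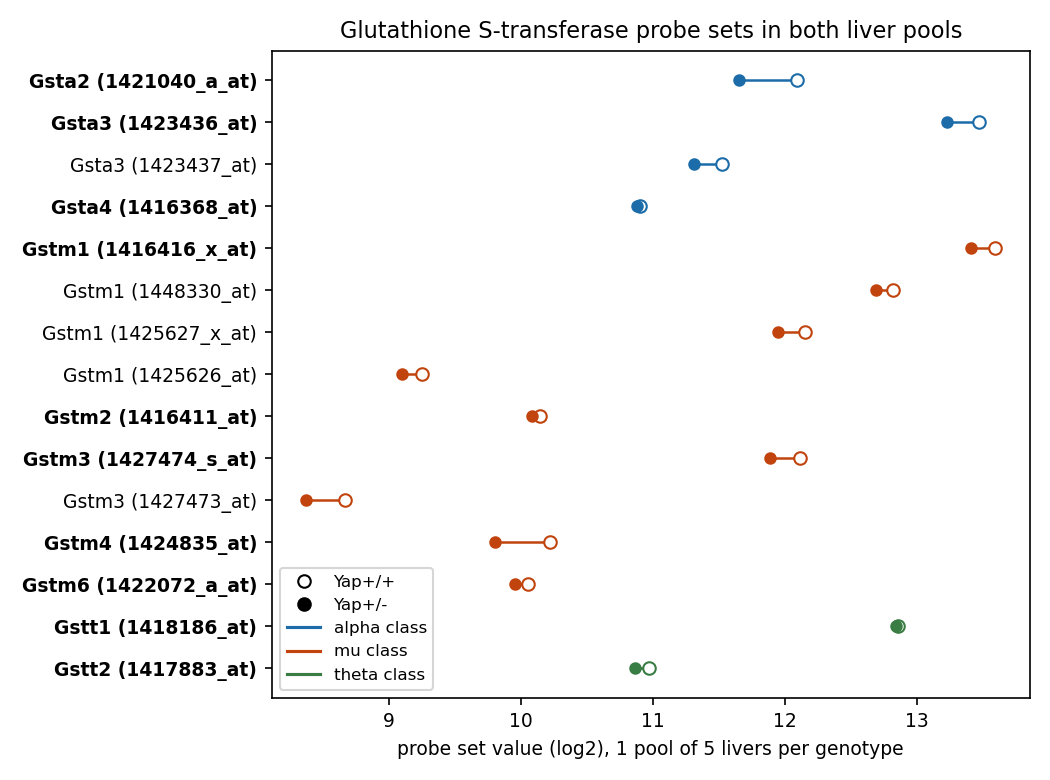
Log2 value of each of the 15 GST probe sets in the Yap+/+ pool (open circles) and the Yap+/- pool (filled circles), coloured by class, with the probe set that represents each gene in bold. The filled circle lies to the left of the open circle in all 15, most widely for Gsta2 and Gstm4 and least for Gstt1, whose sign turns when a trend over intensity is removed.

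The agreement between probe sets of one gene gives a measure of noise within the pair of arrays, though not of the spread between mice or pools. Over 3406 genes with at least 2 measured probe sets, the brightest pair disagreed about the difference with a robust SD of 0.17. Where both had a mean of at least 10, it was 0.11 over 428 genes. The differences of Gsta2 and Gstm4 are larger than either figure. Those of Gsta3, Gstm3 and Gstm1 also exceed both, by less, and those of Gstt2, Gstm6, Gstm2, Gsta4 and Gstt1 are below both. Within Gsta3, Gstm1 and Gstm3 the probe sets differed by 0.03, 0.08 and 0.07 from lowest to highest.

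Genes that lie together did not share 1 difference. In the RefSeq order along chromosome 3 the mu genes are Gstm5, Gstm7, Gstm6, Gstm3, Gstm2, Gstm1 and Gstm4. Gstm5 and Gstm7, which are not among the 10, differed by -0.11 and -0.01, although a second measured probe set of Gstm7 differed by 0.13, and Gstm4, at the other end, by -0.42. On chromosome 10 the theta genes run Gstt3, Gstt1, Gstt4 and Gstt2. Gstt3 read 10.65 in Yap+/+ and 10.28 in Yap+/-, 1.29-fold lower, beside the -0.01 of Gstt1, the next GST gene in the row. Gstt4 was under the level called measured.

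**Figure D3:**
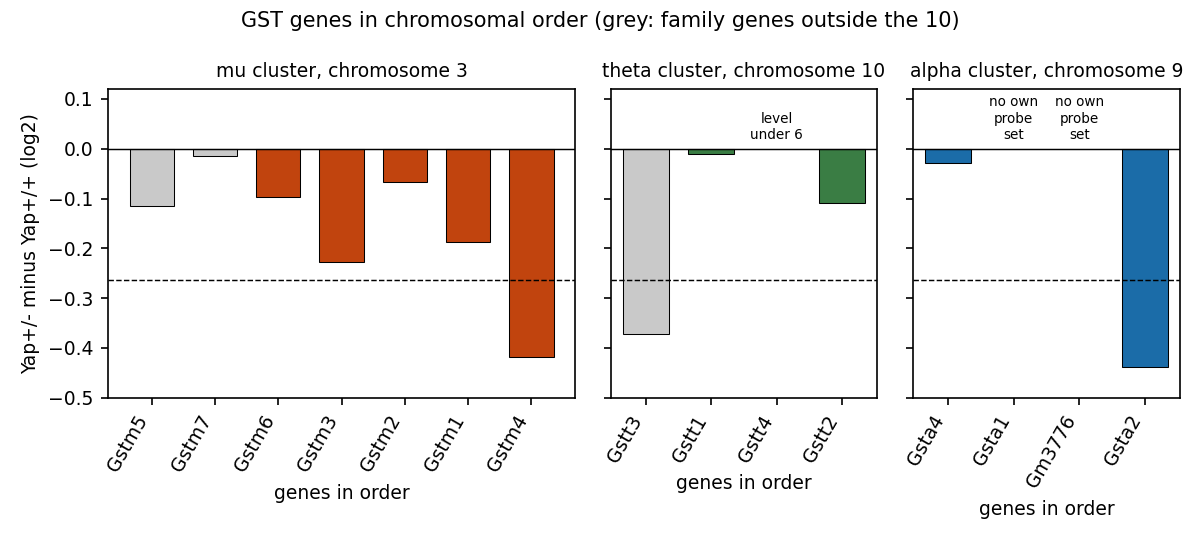
Log2 difference, Yap+/- minus Yap+/+, of the GST genes in the order of 3 chromosomes, with members in colour, other family genes in grey and a dashed line at 1.2-fold lower. Gsta3, on chromosome 1, is not shown. Gstm4, Gstt3 and Gsta2 pass the line, while Gstm7 (brighter probe set), Gstt1 and Gsta4 in the same groups lie within 0.03 of 0.

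Of 18 further GST family genes looked for, 15 had a probe set of their own and 11 were measured. Of these 11, 9 had a negative difference, 1 was at least 1.2-fold lower (Gstt3) and 1 at least 1.2-fold higher (Gsto1), with a median of -0.08. Over all measured genes these shares were 49.6%, 5.45% and 6.02%, so that 1 of 11 is near the background in either direction. Over all 21 measured genes of the family, 19 differences were negative, beside the same 49.6%. Gstz1, the zeta enzyme of tyrosine breakdown, differed by -0.18, and the microsomal Mgst3 and the GST domain gene Gstcd by -0.14 each. Gstp1, the pi class enzyme, differed by -0.08, Gstk1, the mitochondrial and peroxisomal kappa enzyme, by -0.05, and Gstp3 by 0.02. Mgst1, the main microsomal enzyme of liver, read 14.44 and 14.43. Gsto1, an omega class thioltransferase, gave conflicting readings. Its representative, of the _x_at kind, went from 11.72 in Yap+/+ to 12.21 in Yap+/-, 1.41-fold higher, while its other probe set read 11.76 and 11.69, a difference of -0.07. Gsto2, Mgst2 and Hpgds were under the level called measured.

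Genes that supply and use glutathione went both ways, most of them by less than Gsta2 and Gstm4. Of 12 measured genes of glutathione synthesis and precursor supply, none was 1.2-fold lower, 1 was higher and 8 had a negative difference, with a median of -0.07. Over all measured genes these shares were 5.45%, 6.02% and 49.6%, so that 1 gene in a list of 12 or 16 is near the background. Gclm and Gclc, the modifier and catalytic subunits of the rate-limiting ligase, differed by -0.21 and -0.13, and Gss, glutathione synthetase, by -0.06. Chac1, which degrades glutathione and responds to ATF4, was 1.53-fold higher, from 6.95 to 7.57. Of 16 glutathione redox enzymes, 1 was 1.2-fold lower, Srxn1, the sulfiredoxin that repairs peroxiredoxins, at 1.21-fold. Gsr, glutathione reductase, differed by -0.02. In the export and mercapturate group of 12, the exporter Abcc3 was 1.39-fold lower and the aminopeptidase Anpep 1.33-fold higher, with a median of 0.03. Abcc2, the canalicular exporter of glutathione conjugates, differed by 0.01.

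Among genes of regulators that act on GST transcription, Nfe2l2, which encodes NRF2, differed by -0.05, and Keap1, its inhibitor, by 0.03. Nr1i3, which encodes CAR, was 1.34-fold lower, from 9.57 to 9.15, and Nr1i2, which encodes PXR, was 1.37-fold higher, from 7.28 to 7.73. Of 18 measured regulators, 1 was 1.2-fold lower and 3 higher, beside 5.45% and 6.02% of all measured genes. Among the 3 was Maff, a small MAF partner of NRF2, at 1.90-fold. These are transcript values, and the activity of the proteins was not measured. Of 23 measured NRF2 target genes other than GSTs, 9 were at least 1.2-fold lower and 2 higher, with a median of -0.22, beside 5.45% and 6.02% of all measured genes. Ugdh, which makes the sugar donor for glucuronidation, was 1.47-fold lower and the oxidase Aox1 1.44-fold, and the quinone reductase Nqo1, often used as a reporter of NRF2, was 1.36-fold lower. Hmox1, haem oxygenase, was 1.47-fold higher, from 6.09 to 6.64, close to the level of 6 called measured. The other of the 2 higher genes, Osgin1, was 1.33-fold higher, from 10.60 to 11.02. Of 17 CAR and PXR target genes, 2 were 1.2-fold lower and 3 higher, with a median of -0.02, and of 3 measured target genes of the aryl hydrocarbon receptor, 2 were lower, Nqo1 and Cyp1a2, with a median of -0.32. Some genes, such as Nqo1, Gclc and Abcc3, stand in more than 1 list.

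**Figure D4:**
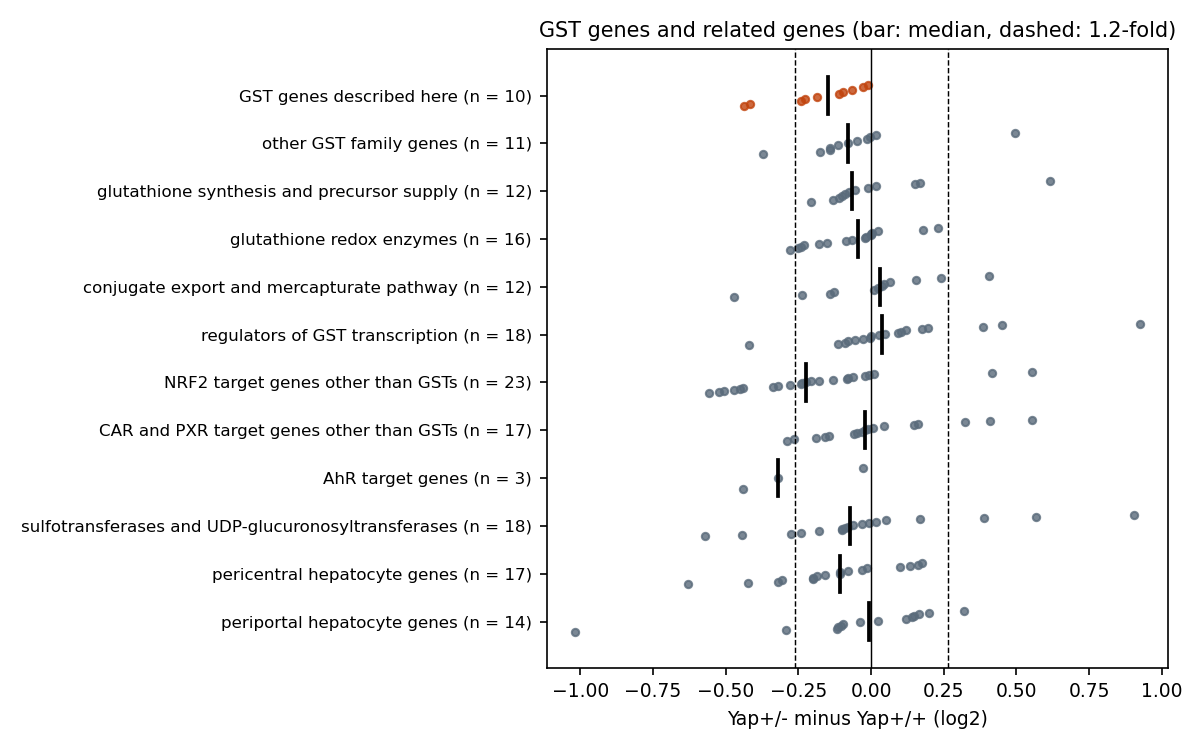
Log2 difference, Yap+/- minus Yap+/+, of each measured gene (points) in the 10 GST genes (top) and 11 lists of related genes, with the median as a bar and dashed lines at 1.2-fold. The GST points run from -0.44 to -0.01, while most other lists have points on both sides of 0, and the NRF2 target genes have their median at -0.22.

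Other conjugating enzymes and the zones of the liver lobule were set beside the GSTs, since many GST genes are more active near the central vein. The 18 measured sulfotransferases and UDP-glucuronosyltransferases went both ways, with 3 at least 1.2-fold lower, 3 higher and a median of -0.07, beside 5.45% lower and 6.02% higher over all measured genes. Of 17 measured pericentral genes, 4 were 1.2-fold lower and none higher, beside the same 5.45% and 6.02%, with a median of -0.11. The R-spondin receptor Lgr5 was lowest, from 6.39 to 5.76, with a mean of 6.07 that is close to the level of 6 called measured. The 2 listed pericentral genes under that level differed by 0.27, which is past 1.2-fold, and by -0.22. The abundant pericentral enzymes Glul and Cyp2e1 differed by -0.01 and -0.03. The 14 periportal genes had a median of -0.01, with 2 lower and 1 higher at 1.2-fold. The urea cycle gene Ass1 was lowest at 2.03-fold, from 8.63 to 7.61, the largest difference in either zone list. Its brightest probe set lay below those of the urea cycle genes Asl, Arg1 and Cps1, with means of 11.89, 13.82 and 14.31. How fully it reads Ass1 transcripts was not tested.

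Several measures of the samples differed between the pools. With 1 pool and 1 array per genotype, genotype, pool and array cannot be told apart. In bulk liver, fewer cells of a type and less RNA per cell cannot be told apart. Of 11 hepatocyte markers, 9 were on the array, and their summed linear level was 177825 in Yap+/+ and 176615 in Yap+/-, with none past 1.2-fold. All 12 Kupffer cell and macrophage markers were higher, with sums of 10209 and 12745, beside a positive difference in 4542 of 9299 measured genes. Of the 12, 6 were at least 1.2-fold higher, beside 6.02% of measured genes. The 12 sinusoidal endothelial markers summed to 5560 and 6461. Of 12 bile duct markers, 9 were on the array, with sums of 1310 and 776. Among these Cd24a, Muc1 and Krt19 had log2 differences of -1.79, -1.67 and -1.90, Krt19 with a mean under 6, whereas Onecut1 and Prom1 differed by -0.60 and -0.22, and Krt7, Epcam, Cftr and Sox9 were under 6 in both pools. The 12 stellate cell and smooth muscle markers summed to 10561 and 10219 and went both ways, with Acta2, Tagln and Des at -1.13, -0.75 and -0.41 and Rgs5 and Pdgfrb at 0.30 and 0.31. Sums were 384 and 445 for 9 of 12 lymphocyte markers, where Ccl5 alone was measured and was 1.54-fold higher. They were 313 and 448 for 9 of 10 neutrophil markers, where S100a9 and S100a8 were 2.70-fold and 3.01-fold higher from values under 6 and Csf3r differed by -0.04. Controls for RNA integrity showed a wider gap between 3-prime and 5-prime probe sets in Yap+/-. On the log2 scale the gap grew by 0.20 (beta-actin), 0.22 (Gapdh) and 0.21 (pyruvate carboxylase), which is larger than the difference of 6 of the 10 GST genes. The 3-prime control probe sets alone differed by -0.11, 0.03 and -0.03. The 3 control probe sets for 18S ribosomal RNA read lower in Yap+/-, with log2 differences of -1.42, -0.91 and -0.89, each larger than that of any GST gene. Yap1 itself differed by -0.15 on its brighter probe set, from 9.40 to 9.24. Its other probe set differed by -0.24, from 6.01 to 5.77, close to the level of 6 called measured. The place of these 2 probe sets relative to the disrupted part of the gene was not analysed here. The part of these measures in the GST values was not tested.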

How the data were processed

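Total RNA from pools of 5 livers per genotype was labelled from the 3-prime end and hybridised to 1 array per pool, per the labels' protocols. The authors deposited log2 values, 1 per probe set. Per the submitters' processing notes they used RMA and Partek 6.5, and the settings were not analysed here. The sorted columns coincide to within 0.047, so a shift shared by most genes would be removed. Depth and detection calls were not used, and the number of arrays limits the precision.

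In the platform annotation that names the probe sets, 34945 had 1 symbol, 932 several, 9160 none and 64 were controls. Of those with 1 symbol, 34741 had an identifier in the RefSeq gene table. Listed symbols were matched to current or older names. The comparison is Yap+/- minus Yap+/+, with no test, and genes are counted at 1.2-fold. Members and lists were chosen with earlier results of these data known. Named are all members, all measured family genes, up to 2 genes per direction of each list past 1.2-fold, and 13 defining genes and Yap1 chosen by role. No genes of most similar pattern are named, since 2 arrays give 1 difference per gene. Promoter windows of 250 bases before the start were searched on both strands. Counting and scaling were tested on simulated data with changes of 1.5-fold and less noise than these arrays have. The simulation checks the code and does not bear on how certain the counts at 1.2-fold are. Alternatives were other minima, other probe sets, median centring, lowess, quantile normalisation, 64 added on the linear scale and other folds. Tools were pandas 2.3.3 and numpy 2.4.6 under Python 3.11.15, with matplotlib 3.10.9 and, for lowess, statsmodels 0.14.6.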

Additional observations from a re-analysis of the deposited data

How the results depend on the processing

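No paired analysis was possible because each genotype has 1 pool. The count of 2 members at least 1.2-fold lower was 0 at 1.5-fold and 0 at 2-fold, 1 without Gsta2, the member with the largest difference, and 1 of the 3 members that have a second probe set, of which 3 were negative. With only probe sets without a suffix, 8 members remained and the 2 past 1.2-fold were Gstm4 and Gstm3, since Gsta2 has no such probe set. The median over members lay between -0.21 and -0.11 in 11 alternatives, of which a minimum of 10 was chosen after the data were seen. Of 91 differences of single members under alternatives, 1 changed sign, that of Gstt1, at 0.0012 after lowess. Many of the 91 could not change sign. All members have a mean of at least 10, and the median over all measured genes was 0. Leaving out the filter, other minima and median centring therefore returned the main values and the main median over members. Median centring also returned the main list medians. An amount added on the linear scale cannot turn a sign. Members with 1 probe set keep their value in any probe set alternative that includes them. Of 110 list medians, 8 changed sign, in the lists for export, periportal, other GST, redox, and CAR and PXR genes, whose medians lay between -0.08 and 0.03. Of these, the CAR and PXR median went from -0.02 over 17 genes to 0.33 over the 2 genes with a second probe set. The median of the aryl hydrocarbon receptor targets went from -0.32 over 3 genes to -0.07 over 7 genes without the filter. With 1 pool per genotype no alternative bears on the spread between mice.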
